A study of Arabidopsis thaliana with 6 samples.

Results

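A group of 6 genes of DNA replication, chromatin assembly and DNA repair was followed in Arabidopsis thaliana seedlings, either wild type or mutated in the transcription factor genes MYB3R1 and MYB3R4. The 6 genes were picked by name: ICU2 (AT5G67100), PRL (AT4G02060), ASF1B (AT5G38110), ATLIG4 (AT5G57160), RAD4 (AT5G16630) and TOP3A (AT5G63920). Each had 1 probe set annotated to that gene alone, out of 22810 probe sets on the array. All 6 were among the 13648 brighter probe sets that were tested.

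The RNA came from whole seedlings at 9 days of age, all of the Col-0 cultivar, either wild type or mutated in both MYB3R1 and MYB3R4. The labels do not name the mutant alleles. No treatment was applied, and both genotypes grew in continuous light on agar medium with 2% sucrose. The arrays were Affymetrix arrays, hybridised with biotin-labelled cRNA, with 1 wild-type and 1 mutant array in each of 3 experimental sets, or 6 arrays in all.

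A dividing cell licenses its replication origins in G1 by loading the MCM helicase, copies its DNA in S phase with polymerases that DNA polymerase alpha primes, and repackages the new DNA with histones handed on by chaperones. Plant genes for these S-phase steps are known as targets of E2F factors. MYB3R factors are known for binding the promoters of genes of mitosis and cytokinesis, which are expressed later in the cycle. Repair genes act on breaks, bulky lesions and joined DNA molecules, in dividing and in resting cells. The comparison asked whether transcripts of these earlier steps and of repair differ when both MYB3R genes are mutated.

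A level below is the log2 of a probe set's signal over the median signal of its array, so a level of 0 is the array's own median. A difference is mutant minus wild type, also in log2, and a negative difference means less transcript in the mutant. Levels of different probe sets depend on their probes and were not compared with each other. With 3 arrays per genotype, precision is limited throughout.

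None of the 6 genes passed the test. All 6 fitted differences were below 0, from -0.064 for PRL to -0.33 for ASF1B, with limma adjusted p values between 0.35 and 0.835. At an adjusted p under 0.05 limma called 0 of the 6 genes, against 0.528% of all tested probe sets (72 of 13648, 19 lower and 53 higher in the mutant, and 1 without the set in the model). At an unadjusted p under 0.05 it also called 0 of the 6, against 17.4% of the tested probe sets. The 2 genotypes overlapped in level for all 6 genes, while they did not overlap for 12.7% of the tested probe sets. A fitted difference below 0 was found for 41.7% of the tested probe sets, and the 6 genes were chosen with earlier results of these arrays known, so their shared sign was not tested. In whole-seedling RNA, fewer cells of a type and less RNA per cell cannot be told apart.

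**Figure D1:**
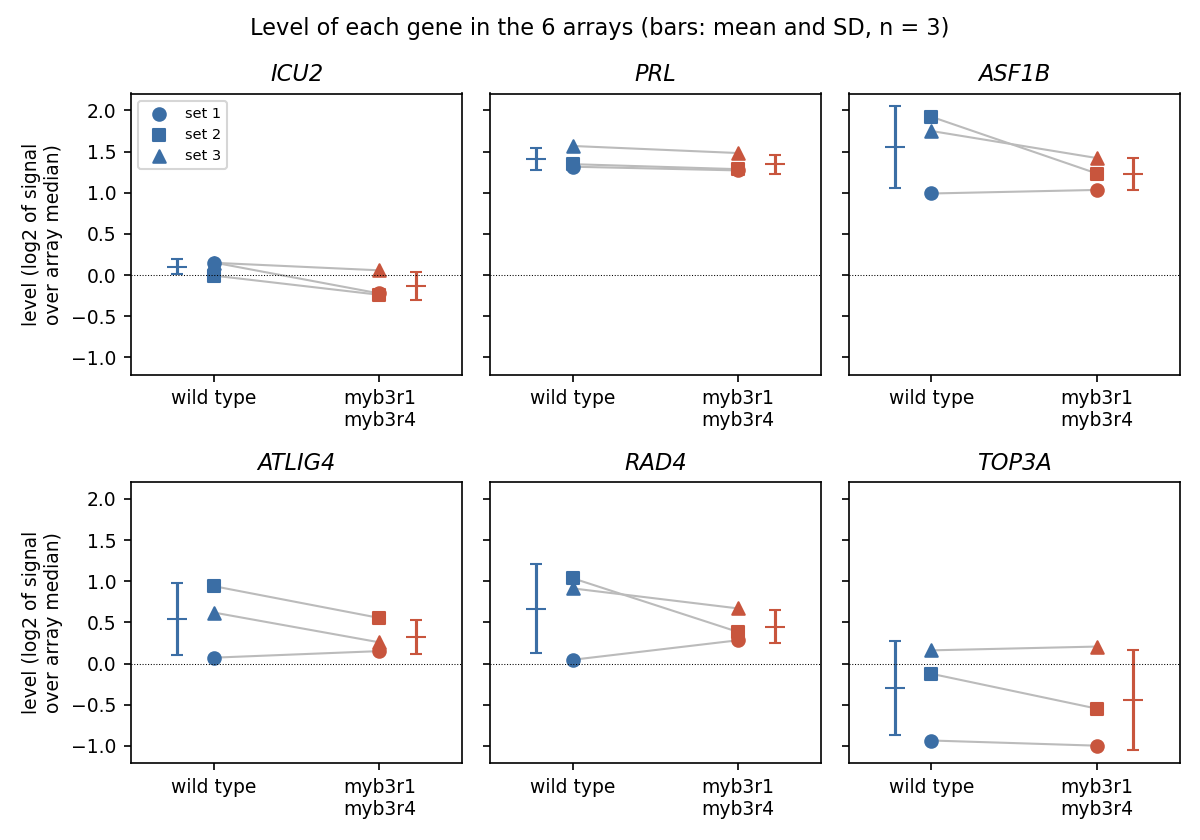
Level of each gene (log2 of signal over the array's median signal) in wild-type and myb3r1 myb3r4 arrays, with grey lines joining the 2 arrays of a set and bars for the mean and SD of 3 arrays. Wild-type and mutant levels overlap in every panel, PRL lies within 1.27 to 1.57 in all arrays, and the circles of set 1 are the lowest points of both genotypes for ASF1B, ATLIG4, RAD4 and TOP3A.

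ICU2 encodes the catalytic subunit of DNA polymerase alpha, which starts each new DNA strand. Its levels in sets 1, 2 and 3 were 0.15, -0.0054 and 0.15 in wild type and -0.22, -0.24 and 0.058 in the mutant. The mutant array was the lower one in each set, but the highest mutant array, of set 3, lay above the wild-type array of set 2. Wild type averaged 0.10 ± 0.09 (SD, n = 3) and the mutant -0.13 ± 0.17 (SD, n = 3). The difference was -0.23 (SE 0.17, limma adjusted p = 0.48), with set differences of -0.38, -0.23 and -0.092. Wild type stood at 1.18 times the mutant signal, with a 95% interval of 0.906 to 1.53 times.

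PRL, or PROLIFERA, encodes the MCM7 subunit of the helicase that opens DNA ahead of the replication fork. Levels in sets 1, 2 and 3 were 1.32, 1.35 and 1.57 for wild type and 1.27, 1.29 and 1.48 for the mutant. Each mutant array lay slightly below its wild-type partner, and the arrays of set 3 were the highest of both genotypes. The set differences were -0.044, -0.061 and -0.085. Their fitted value of -0.064 (SE 0.14, limma adjusted p = 0.835) had a 95% interval from -0.38 to 0.25. Wild type was therefore at 0.84 to 1.3 times the mutant signal, the narrowest interval of the 6 genes. ICU2 and PRL were the only genes of the 6 that were lower in the mutant in all 3 sets, a pattern also shown by 15.6% of the tested probe sets.

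ASF1B encodes a chaperone that carries histones H3 and H4 to newly copied DNA. In sets 1, 2 and 3 its levels were 0.99, 1.92 and 1.75 for wild type and 1.03, 1.23 and 1.42 for the mutant. In set 1 the 2 genotypes were nearly level, and in sets 2 and 3 the mutant array was the lower one. The means were 1.56 ± 0.50 (SD, n = 3) and 1.23 ± 0.19 (SD, n = 3). The difference of -0.33 (SE 0.17, limma adjusted p = 0.35, unadjusted p = 0.092) was the largest of the 6 genes, with set differences of 0.044, -0.69 and -0.33. Wild type stood at 1.25 times the mutant signal, with a 95% interval of 0.956 to 1.64 times. The difference was -0.51 without set 1 (limma adjusted p = 0.10, unadjusted p = 0.014) and -0.14 without set 2. The fit without set 1 called 1107 of all tested probe sets at an adjusted p under 0.05, against 72 with all sets, and ASF1B was not among them.

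Of the repair genes, ATLIG4 encodes DNA ligase IV, which seals broken ends in non-homologous end joining. Its levels were 0.073, 0.94 and 0.62 in wild type and 0.15, 0.55 and 0.26 in the mutant. The mutant array was the lower one in sets 2 and 3, by -0.39 and -0.36, and the higher one in set 1, by 0.080. The fitted difference was -0.22 (SE 0.16, limma adjusted p = 0.50). It was -0.37 without set 1, -0.14 without set 2 and -0.15 without set 3.

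RAD4 is named after the yeast protein that recognises bulky lesions at the start of nucleotide excision repair. Its levels were 0.047, 1.04 and 0.91 in wild type and 0.28, 0.38 and 0.67 in the mutant. The lowest and the highest of the 6 arrays were both wild type, and the mutant arrays lay between them. The set differences of 0.24, -0.65 and -0.24 gave a fitted difference of -0.22 (SE 0.19, limma adjusted p = 0.57). Without set 1 this difference was -0.45 (limma adjusted p = 0.16, unadjusted p = 0.033), and without set 2 it was -0.0031. RAD4 was not among the 1107 probe sets called without set 1.

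TOP3A encodes topoisomerase 3 alpha, which works with RecQ helicases to take apart joined DNA molecules. Its levels were -0.93, -0.12 and 0.16 in wild type and -0.997, -0.55 and 0.21 in the mutant, so the 2 arrays of sets 1 and 3 were each nearly level. Set 2 differed by -0.42, set 1 by -0.063 and set 3 by 0.046. The fitted difference of -0.15 (SE 0.19, limma adjusted p = 0.71) became -0.0085 without set 2. Over the 3 wild-type arrays the SD was 0.57 and over the 3 mutant arrays 0.61, the widest of the 6 genes in both genotypes.

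Differences of modest size could not be called in these arrays. With the SE of each gene, an adjusted p under 0.05 would have needed a difference of 0.82 for PRL and between 0.98 and 1.13 for the other 5 genes, either way. In the fit with the set in the model, the 95% intervals reached a wild-type signal of 1.64 times the mutant signal for ASF1B. They reached 1.57 times for RAD4, 1.53 times for ICU2, 1.51 times for ATLIG4, 1.49 times for TOP3A and 1.3 times for PRL. These intervals are for 1 gene at a time and are not adjusted over the 6. They are not firm limits. Without the set in the model all 6 SEs were larger, up to 0.38 for TOP3A in place of 0.19. Undoing the scaling to array medians moved all 6 differences further below 0.

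The sign of all 6 differences held with quantile normalization and with an offset before the log. Over all tested probe sets the median difference was 0.058, and relative to it the 6 genes lay at -0.12 for PRL to -0.38 for ASF1B. In the ranking of all tested differences, 7.79% lay below ASF1B, 13.7% below ICU2, 14.6% below ATLIG4, 15% below RAD4, 22.7% below TOP3A and 33% below PRL. When the scaling of arrays to their medians was undone, the median over these probe sets moved to -0.066. That step lowers every difference by the same amount, so the signs of the 6 genes could not change. On that scale, 33 probe sets were called lower and 41 higher in place of 19 and 53. The differences of ASF1B, ICU2, ATLIG4, RAD4, TOP3A and PRL were then -0.45, -0.36, -0.35, -0.34, -0.27 and -0.19. The lowest limma adjusted p among them was 0.25, for ASF1B, whose unadjusted p of 0.031 was the only one of the 6 under 0.05.

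**Figure D2:**
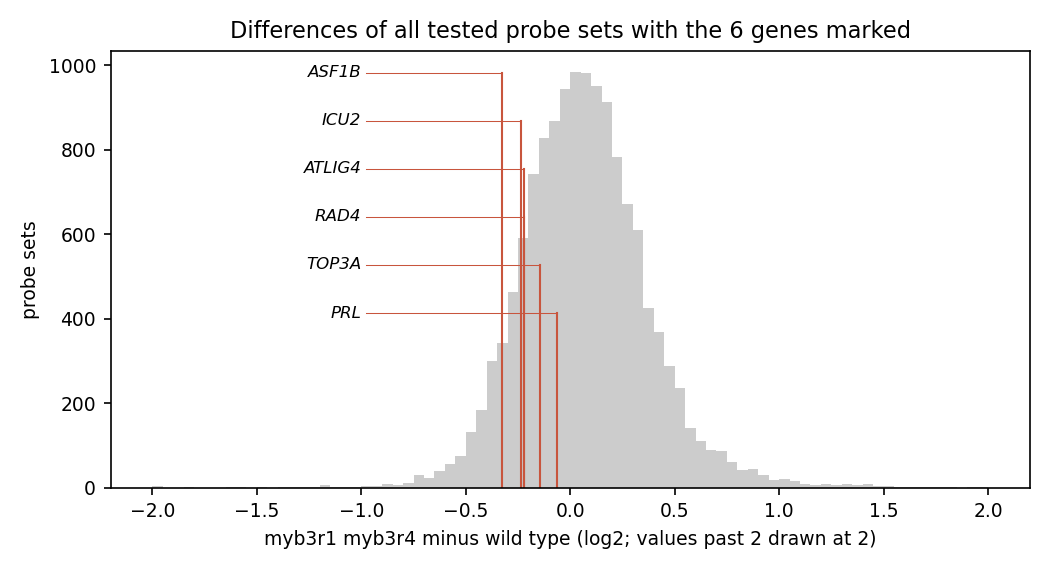
Number of tested probe sets by fitted difference (myb3r1 myb3r4 minus wild type, log2), with red lines at the 6 genes. All 6 lines stand left of the median of all tested probe sets, 0.058, and inside the main body of the distribution, from ASF1B at -0.33 to PRL at -0.064.

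For 5 of the 6 genes most of the variation ran between sets and not between genotypes. The set accounted for 93.5% of the sum of squares of TOP3A over the 6 arrays, 90.9% of that of PRL, 73.8% of that of ATLIG4, 63.2% of that of RAD4 and 59.6% of that of ASF1B. The median over all tested probe sets was 54.1% for set and 16.3% for genotype. ICU2 differed from the other 5 in that genotype took the larger share, 53.1%, and set 33.8%. The genotype share was 21.9% for ASF1B, 13.6% for ATLIG4, 9.84% for RAD4, 8.47% for PRL and 2.29% for TOP3A.

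In wild type, set 1 stood apart for ASF1B and the 3 repair genes. In wild type the mean of sets 2 and 3 lay above set 1 by 0.95 for TOP3A, 0.93 for RAD4, 0.85 for ASF1B and 0.71 for ATLIG4. In the mutant, where set 1 was also the lowest but sets 2 and 3 lay as far apart for some of these genes, the same shift was 0.83 for TOP3A, 0.24 for RAD4, 0.29 for ASF1B and 0.26 for ATLIG4. The shift was thus about alike in both genotypes for TOP3A, and larger in wild type for the other 3. For ICU2 it was -0.081 in wild type and 0.13 in the mutant, and for PRL 0.14 and 0.11. Averaged over the genotypes, the shift exceeded that of 97.3% of the tested probe sets for TOP3A, 91.6% for RAD4, 91.1% for ASF1B and 87.8% for ATLIG4.

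A sign of RNA quality moved with the levels of ASF1B and RAD4, and less closely with those of ATLIG4 and TOP3A. Control genes are probed at both ends, and their 3' signal minus their 5' signal measures how far the labelled RNA is skewed to the 3' end. This control signal was 1.07, 3.04 and 3.22 for wild type in sets 1, 2 and 3. In the mutant it was 1.5, 1.92 and 2.44. The mutant exceeded wild type by 0.44 in set 1 and differed from it by -1.12 in set 2 and by -0.78 in set 3, and RAD4, ASF1B and ATLIG4 were higher in the mutant in set 1 and lower in sets 2 and 3. In ascending order of the control signal, the 6 arrays were wild type of set 1, mutant of sets 1, 2 and 3, then wild type of sets 2 and 3. In that order ASF1B stood at 0.99, 1.03, 1.23, 1.42, 1.92 and 1.75, and RAD4 at 0.047, 0.28, 0.38, 0.67, 1.04 and 0.91. Both thus stood higher with each step of the control signal over the first 5 arrays and were lower in the last. ATLIG4, at 0.073, 0.15, 0.55, 0.26, 0.94 and 0.62, did not rise at each of these steps. Nor did TOP3A, at -0.93, -0.997, -0.55, 0.21, -0.12 and 0.16. Its differences in sets 1 and 3, -0.063 and 0.046, had the opposite sign to those of the control signal. PRL, at 1.32, 1.27, 1.29, 1.48, 1.35 and 1.57, spread less but had its highest levels in the 3 arrays of highest control signal. ICU2 showed no such order, its highest levels being in the wild-type arrays of sets 1 and 3.

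With the control signal as a covariate beside the set, the differences were -0.12 for ASF1B, -0.068 for ATLIG4, 0.037 for RAD4 and -0.075 for TOP3A. RAD4 thus changed sign. The differences of ICU2 and PRL were -0.30 and -0.055 in that fit, and none of the 6 genes passed (limma adjusted p from 0.50 to 0.94). This fit has 1 residual degree of freedom per gene before the spread is pooled across probe sets. Whether RNA quality has a part in the differences of the 6 genes was not tested. How many of all tested probe sets follow the order of the control signal was not counted.

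**Figure D3:**
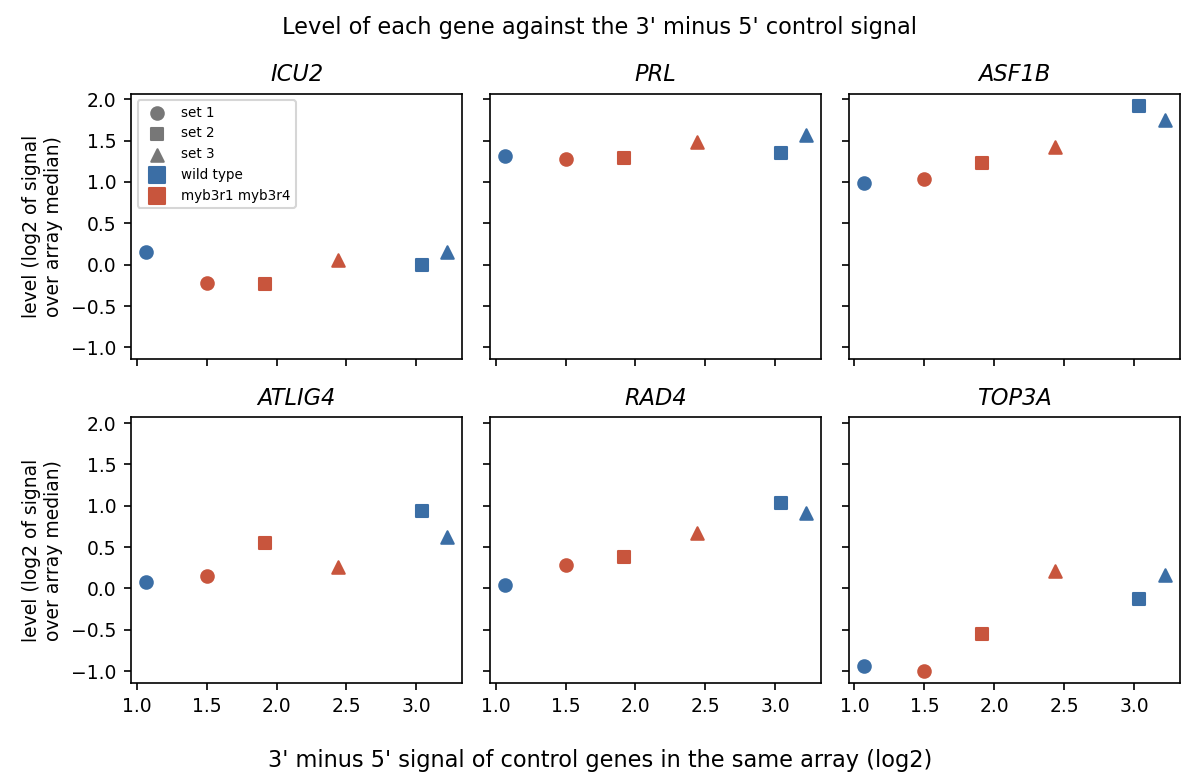
Level of each gene (log2 of signal over the array's median signal) against the 3' minus 5' control signal of the same array (log2), with 1 point per array, shapes for sets and colours for genotypes. ASF1B and RAD4 climb from left to right over the first 5 arrays. ICU2 and PRL stay within a narrow band, in which the rightmost points of PRL are its highest.

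Lists of genes of the same processes gave no call either, but few listed genes were tested, and most of those are genes already described. For repair, the genes tested under their listed symbol were ATLIG4, RAD4 and TOP3A alone. Of 73 listed genes of replication and chromatin assembly 7 had a probe set of their own under the listed symbol, and all 7 were tested. Another 3 with a probe set were left out because the reference table gives their locus another symbol. Among the 7 tested genes 3 were lower and 4 higher, with 0 past an adjusted p of 0.05 in limma and 0 at an unadjusted p under 0.05. Their median difference was 0.062, beside 0.058 for all tested probe sets, and it was -0.062 with the scaling to array medians undone. The medians of the single sets were -0.044, -0.061 and -0.013, where those of all tested probe sets were 0.060, 0.038 and 0.051. Leaving out set 1, 2 or 3 gave -0.073, -0.039 and -0.053. The 3 lower ones of the 7 were ICU2, PRL and ASF1B. Of the genes left out for their symbol, FEN1 (AT5G26680) was tested and differed by -0.095 (SE 0.19). The counts and the median thus hold for the 7 genes alone. The lists were drawn up with earlier results of these arrays known.

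The other 4 of the 7 genes stood above 0 in the main fit, as did most tested probe sets. With the scaling of arrays undone, 5 of the 7 were lower and 2 higher. The side of 0 thus depended on the scaling for some of the 4. In the main fit POLA3 and POLD3 exceeded the overall median difference, 0.058, by only 0.017 and 0.0044, and PSF2 and ASF1A exceeded it by 0.17 and 0.12. POLA3, a primase gene whose product joins the ICU2 product in the polymerase alpha complex, differed by 0.075 (SE 0.15), with levels of 0.70, 0.77 and 0.78 in wild type and 0.64, 1.07 and 0.77 in the mutant. POLD3, a subunit gene of DNA polymerase delta, differed by 0.062 (SE 0.21) from set differences that pulled apart, 0.37, -0.53 and 0.35. PSF2, of the GINS complex that works with the MCM helicase at the fork, differed by 0.23 (SE 0.18). ASF1A, the paralog of ASF1B, differed by 0.18 (SE 0.16), with levels of 0.70, 0.82 and 0.12 in wild type and 0.88, 0.77 and 0.52 in the mutant.

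Paired genes of the same complex or family were set against each other within each set, a comparison chosen after their values were seen. The mutant minus wild-type difference of ASF1B was below that of ASF1A by 0.144, 0.635 and 0.722 in sets 1 to 3, a mean of -0.50 ± 0.31 (SD, n = 3). An exact two-sided permutation test, swapping genotypes within sets, gave p = 0.25, the smallest that 3 sets allow. The difference of ICU2 minus that of POLA3 was -0.31, -0.54 and -0.078, a mean of -0.31 ± 0.23 (SD, n = 3, exact permutation p = 0.25). Adjusted over these 2 pairs both p values stayed at 0.25, a floor that this test cannot pass below with 3 sets, so the p says nothing on whether the genes of a pair respond differently.

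Of 59 listed repair genes 8 had a probe set of their own, not counting 1 whose symbol did not match, and 3 were bright enough to be tested. These were ATLIG4, RAD4 and TOP3A themselves, all with a fitted difference below 0 and a median of -0.22. In sets 1 to 3 the median was 0.080, -0.42 and -0.24. In the fit without a filter on dim probe sets, 6 of the 8 were below 0 and 2 above, with a median of -0.197. The median of all probe sets in that fit was 0.041. The 6 include ATLIG4, RAD4 and TOP3A, and the rest of the 8 are dim genes that went both ways. RECQ4A and RECQ4B, RecQ helicase genes whose products are known as partners of topoisomerase 3 alpha, are dim and differed by -0.27 (SE 0.28, limma adjusted p = 0.72) and 0.27 (SE 0.37, limma adjusted p = 0.80) in that fit. RECQ4A had levels of -0.41, -1.71 and -1.27 in wild type and -0.80, -2.23 and -1.17 in the mutant. Its set differences were -0.39, -0.52 and 0.099, and those of RECQ4B were 0.84, -0.32 and 0.29, so the 2 genes differed in direction in set 1 alone.

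**Figure D4:**
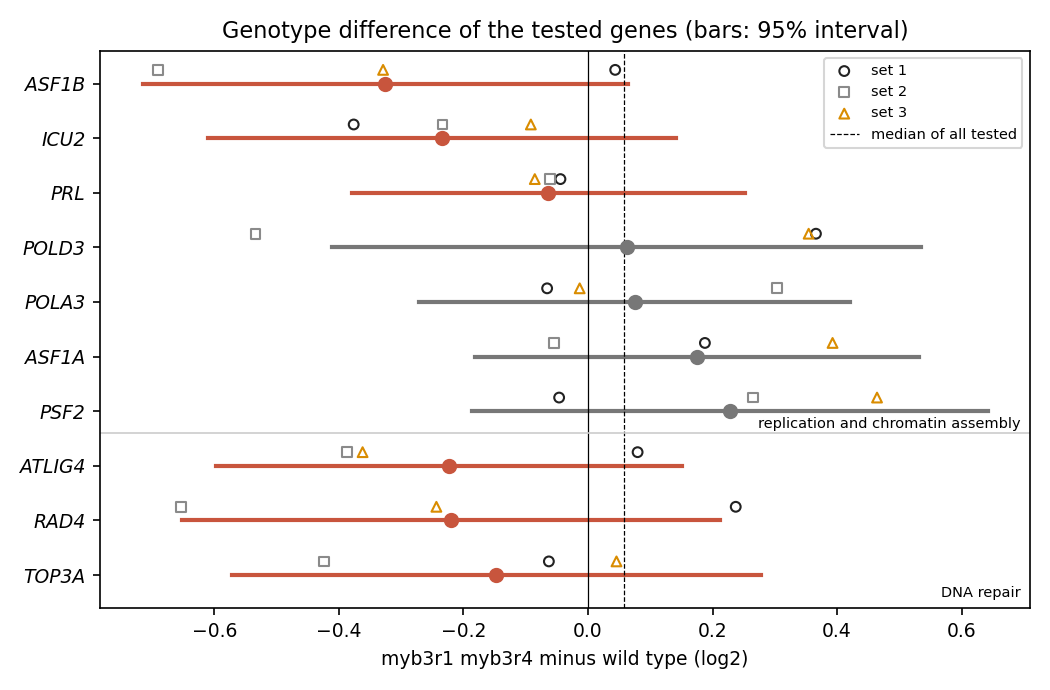
Fitted difference (myb3r1 myb3r4 minus wild type, log2) of the 10 tested genes of both lists, with 95% intervals as bars, the 3 set differences as open symbols and the 6 genes described here in red. Every interval crosses 0, the 6 red points lie below 0, and ASF1A, PSF2, POLA3 and POLD3 lie above it.

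The levels of the 6 genes did not move as 1 group. Over the 6 arrays Pearson's r was 0.98 between ASF1B and RAD4, 0.89 between ASF1B and ATLIG4 and 0.84 between RAD4 and ATLIG4. It was 0.85 between PRL and TOP3A but -0.023 between ICU2 and ATLIG4, and 0.33 between ICU2 and ASF1B. TOP3A also had an r of 0.845 with RAD4 and 0.805 with ASF1B. The 15 pairs of genes ranged from -0.023 to 0.98. All of these are descriptions, since the arrays of a pair share their set and all genes share the array.

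The named probe sets most like each gene over the 6 arrays were AT2G13690 (r = 0.995) and AT3G45190 (r = 0.995) for ASF1B, AT1G80800 (r = 0.995) and AT3G44740 (r = 0.994) for RAD4, and AT5G46630 (r = 0.994) and AT1G75420 (r = 0.994) for ATLIG4. Those for TOP3A were AT4G33500 (r = 0.994) and AT2G01330 (r = 0.989), and those for PRL were AT1G79090 (r = 0.9975) and AT5G48990 (r = 0.987). ICU2 was nearest to AT1G08310 (r = 0.973) and AT4G18465 (r = 0.972). An r above 0.9 was reached by 440 of 7306 named probe sets for ASF1B, 431 for RAD4, 220 for ATLIG4, 205 for TOP3A, 42 for PRL and 18 for ICU2. The profiles of ASF1B and RAD4 were thus shared by many more transcripts than those of ICU2 and PRL. None of the 12 nearest genes passed in limma (adjusted p from 0.35 to 0.96), and all 12 fitted differences were negative, from -0.016 to -0.44. These genes were picked for following, over the same arrays, genes that had not passed. Their result is therefore no separate test.

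Markers of shoot, root and dividing cells were present in every array. Of 7 shoot markers 3 had a probe set of their own, and their summed level was 196 to 234 times the array median in wild type and 233 to 296 times in the mutant. Of 6 genes listed as root markers only PYK10 and NAI2 had a probe set of their own. These 2 summed to 57.8 to 93.6 times in wild type and 65.7 to 108 times in the mutant. Whether they are confined to root was not checked. For dividing cells 2 of 7 markers were measured, the histone gene HTB4 and the mitotic kinase gene AUR1. Their sum was 19.1 to 26.8 times in wild type and 23.4 to 36.9 times in the mutant, most of it from HTB4 in every array. AUR1, as a gene of mitosis, is of the class that MYB3R factors are known for binding. HTB4 differed by 0.45 (SE 0.16, limma adjusted p = 0.22) and AUR1 by 0.28 (SE 0.18, limma adjusted p = 0.42), both on the other side of 0 from the 6 genes. The shoot markers RCA, PRK and PSAE-1 differed by 0.36, 0.33 and 0.20, and the root markers PYK10 and NAI2 by 0.33 and 0.41. All 7 measured markers thus had a fitted difference above 0, where 41.7% of the tested probe sets lay below 0. In set 2 alone AUR1 was lower in the mutant, by -0.14. None passed an adjusted p of 0.05 in limma. An unadjusted limma p under 0.05 was found for 4 of the 7 (RCA, PRK, NAI2 and HTB4), against 17.4% of the tested probe sets. For RCA the 2 genotypes did not overlap in level, as for 12.7% of the tested probe sets. The part of tissue makeup in the differences of the 6 genes was not tested. No probe set used here carried the name MYB3R1 or MYB3R4, so the genotype labels were not checked at the mutated genes.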

How the data were processed

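The deposited values are log2 signals, 1 array per sample. Per the submitters' processing notes the authors summarised them with MAS5, of unstated version and scaling target. The median of every column is 0, which shows that arrays had been divided by their median signal. Undoing this took the smallest step of each array as 0.1 signal unit, of which 100% of values below 3000 steps were whole multiples (tolerance 0.02). A single value standing for a signal of 0 was set to that step.

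Of 22810 probe sets 64 controls were left out, and the brightest 60% by mean level entered limma 3.58.1 (R 4.3.3; eBayes, trend on; residual degrees of freedom 2, prior 6.79). The model held genotype and the experimental set, with Benjamini-Hochberg adjustment over 13648. The fit was tested on simulated data. The pairing is by the set named in the labels. Within a set, the deviations of both arrays from the mean of their genotype correlated by 0.67, 0.28 and 0.62 (sets 1 to 3), though the wild-type array of set 2 correlated more with the mutant of set 3 (0.37). Whether sets were separate cultures is not stated, so the spread behind the p-values may be technical.

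Names came from the platform annotation, updated through RefSeq's TAIR10.1 gene table. Of the 22746 other probe sets 13513 carried 1 gene. List entries were matched by locus tag, and 6 whose symbol differed in that table were dropped. Of these, 4 have a probe set. The 3' minus 5' signal is the mean over 6 pairs of actin, GAPDH and ubiquitin control probe sets. The members and lists were chosen with earlier results of these data known. Genes named are the 6 members, their measured direct partners, the lowest and highest tested gene of each sublist, any list gene that passed and, per member, the 2 named probe sets most like it. POLD3, the markers and FEN1, a dropped list entry, are named as well. The alternatives were no block, quantile normalization, the median division undone, no filter, the brightest 40%, an offset of 16 signal units, the control signal as a covariate and each set left out.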

Additional observations from a re-analysis of the deposited data

How the results depend on the processing

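Under the 10 alternatives the 6 genes gave 56 values, of which 55 kept their direction and 0 passed an adjusted p of 0.05 in limma. Not all of these values were free to change direction. Without the block and under both changes of the filter a difference stays the same, and undoing the median division could only lower it. Without set 2, RAD4 at -0.0031 and TOP3A at -0.0085 kept their direction only just. The exception in direction was RAD4 with the 3' minus 5' control signal as a covariate, at 0.037. The brightest 40% hold only PRL and ASF1B of the 6. The count of probe sets called, 72, was 1 without the replicate block, 14 without a filter on dim probe sets, 43 among the brightest 40%, 194 with the covariate, and 107 to 1107 when 1 set was left out (1107 without set 1, 107 without set 2 and 207 without set 3). Without the block no call changed among the 6 genes, with ASF1B at -0.33 (adjusted p = 0.78). The median of the replication and chromatin assembly list, 0.062, was -0.062 with the median division undone, -0.064 among the brightest 40%, -0.016 with the covariate, and -0.073 to -0.039 when 1 set was left out. The median of the repair list, -0.22, ran from -0.37 without set 1 to -0.0085 without set 2. Detection calls were not used here.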
